A study of Mus musculus with 66 samples.

Results

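Desmosomes are the adhesive junctions that tie the keratin filaments of neighbouring epithelial cells together. Their membrane-spanning cadherins, the desmogleins and desmocollins, bind across the gap between cells, the armadillo proteins plakoglobin and the plakophilins bind the cadherin tails inside the cell, and desmoplakin links these to keratin. Simple epithelia such as that of the colon use mainly Dsg2 and Dsc2, whereas stratified squamous epithelia add Dsg3, Dsc3, Dsg1 and Pkp1. The 10 genes described here are the desmogleins Dsg2, Dsg3 and Dsg1a, the desmocollins Dsc2 and Dsc3, the plakophilins Pkp1 and Pkp3, Jup (plakoglobin), Dsp (desmoplakin) and Perp, a tetraspan membrane protein needed for desmosome assembly in stratified epithelia. They were chosen by name for their role in desmosomes, with earlier results of these data known. All 10 were found among the 30452 genes of the deposited table, as 36 of its 88198 transcripts.

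RNA was sequenced in bulk from 66 tissue samples of 19 C57Bl/6 mice that were bought at an age of 6 weeks. Day 0 mice (4) were uninjured, and the other 15 were taken at day 3, 6, 9, 14 or 20 (3 mice per day) of a protocol in which 3% dextran sulfate sodium (DSS), a chemical that damages the colon lining, was given from day 0 over 6 days, so the day 3 mice had not completed it. Every mouse gave a section of mid-colon, rectum and anus, and the 9 mice of days 9, 14 and 20 also gave a sample labelled squamous neo-epithelium, which has no counterpart on the earlier days. No transgene or deletion is named in the labels, the muscle was removed before RNA extraction, and sections of one mouse share that animal while each day has different mice. Levels are in TPM, a relative transcript abundance that adjusts for transcript length. A difference is on the log2(TPM + 1) scale, which understates changes of low genes, and a gene is called if its limma p adjusted over all tested genes (Benjamini-Hochberg) is under 0.05.

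The section labels were set beside marker genes. These were chosen with earlier results of these data known, so this is a description and not an independent check. The summed TPM of 6 squamous markers (Krt5, Krt14, Krt13, Krt4, Trp63, Sprr1a) lay between 10934 and 25710 in the anus and between 11698 and 27779 in the neo-epithelium, against at most 76.7 in mid-colon and 816 in rectum. Colonic markers (Car1, Slc26a3, Aqp8, Muc2, Cdx2, Krt20) summed to between 2635 and 10204 TPM in mid-colon and rectum. They were also present in part of the anal and neo-epithelial samples: 449 to 1649 TPM in the day 0 anus, 13.9 to 51.1 TPM in the anus of days 6 and 9, 24.5 to 224 TPM in the neo-epithelium of day 9 and 1443 to 2949 TPM in that of day 20. Skeletal muscle markers summed to between 1123 and 12338 TPM in the anus and at most 9.15 TPM in the neo-epithelium. In bulk tissue, fewer cells of a type and less RNA per cell cannot be told apart.

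**Figure D1:**
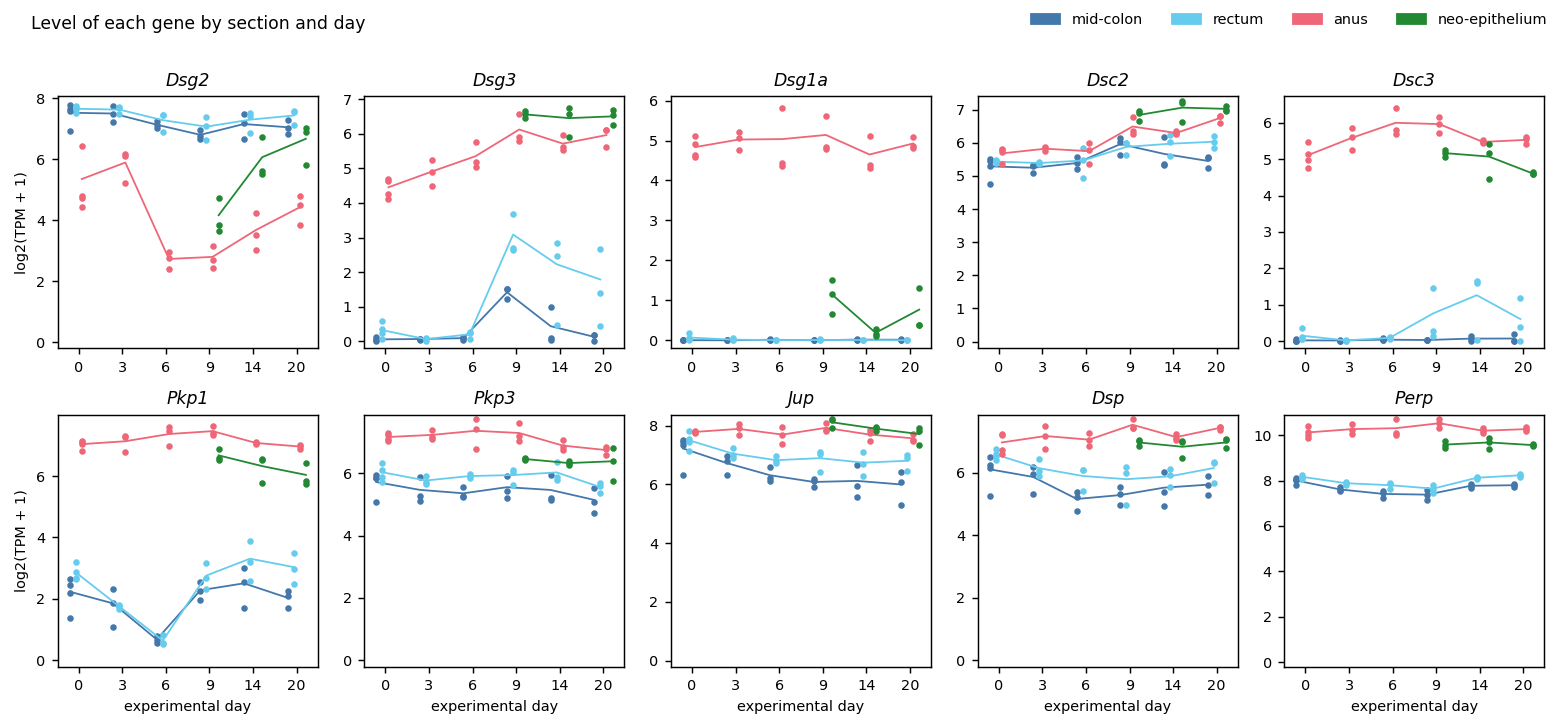
Level of each of the 10 genes, as log2(TPM + 1), by experimental day in mid-colon, rectum, anus and neo-epithelium; each point is one mouse and lines join the log2 of the group mean plus 1. Dsg2 is high in mid-colon and rectum, Dsg3, Dsc3 and Pkp1 are high in anus and neo-epithelium, and Dsg1a is high in the anus alone.

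In uninjured mice the anus and the rectum differed in their desmosomal cadherins. Of the 10 genes, 6 were higher in the anus (Dsg3, Dsc3, Dsg1a, Pkp1, Perp and Pkp3), Dsg2 was lower, and Dsc2, Dsp and Jup did not pass the test. Over all 13158 genes tested, 60.3% were called in this comparison, so 7 of 10 is close to the background of 2 such different tissues. The median difference was 1.55 over the 10 genes and -0.15 over all genes tested.

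The desmoglein Dsg2, which simple epithelia rely on, was at 205, 199, 213 and 182 TPM in the rectum of the 4 day 0 mice. Its level in the anus of the same mice was 20.3, 26.9, 25.5 and 85.9 TPM. All 4 anal values lay below all 4 rectal ones, and the difference was -2.55 ± 0.37 (SE, limma adjusted p 0.000255). The mouse at 85.9 TPM also had the highest colonic marker sum of the day 0 anus (1649 TPM, against 449 to 816 in the other 3). Without that mouse the difference was -3.04, with a limma adjusted p of 3.02e-06. All 6 colonic markers were lower in the anus than in the rectum, and their part in the Dsg2 difference was not tested.

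Dsg3, a desmoglein of the lower layers of squamous epithelium, was between 0.0418 and 0.515 TPM in the rectum and at 18.2, 16.3, 25.0 and 23.9 TPM in the anus. The difference was 4.12 ± 0.19 (SE), with a limma adjusted p of 1.57e-07. Its desmocollin counterpart Dsc3 was between 0.0316 and 0.274 TPM in the rectum and at 26.3, 30.6, 43.5 and 34.7 TPM in the anus (4.96 ± 0.18, SE). Dsg1a, a desmoglein of the upper layers, was at 23.2, 24.0, 33.8 and 29.1 TPM in the anus and at most 0.128 TPM in the rectum, where one mouse was listed at 0. The 3 groups of anal values did not overlap the rectal ones, in a comparison with 60.3% of all genes called. The share of all genes without overlap was not computed. Dsg1a has the near-identical copies Dsg1b and Dsg1c, so the division of reads among these 3 is uncertain.

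Pkp1, the plakophilin of stratified epithelia, was detected in the rectum at 8.19, 6.29, 5.48 and 5.25 TPM and was 20.7-fold higher in the anus, at 132, 139, 138 and 113 TPM (4.18 ± 0.15, SE). Pkp3, which is found in simple and stratified epithelia alike, was at 64.6 ± 12.1 TPM (SD, n = 4) in the rectum and 143 ± 10.9 TPM (SD, n = 4) in the anus. Its largest coding transcript (Pkp3-202) did not rise with it, at 52.6 ± 10.3 TPM in the rectum and 46.8 ± 6.61 TPM in the anus. Pkp3-205, annotated as a retained intron, was at 5.54 ± 2.27 TPM in the rectum and 79.3 ± 6.86 TPM in the anus. Perp had the highest level of the 10 genes in the anus, at 1351, 1045, 1133.5 and 944 TPM, and was between 270 and 299 TPM in the rectum. These 3 genes did not overlap between the sections, again with 60.3% of all genes called and no all-gene share of non-overlap computed.

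The linkers showed smaller differences. Jup was at 224, 172, 185 and 139 TPM in the rectum and at 211, 220, 226 and 220 TPM in the anus. Dsp was between 85.1 and 108 TPM in the rectum and between 95.6 and 152 TPM in the anus. Dsc2 was between 40.8 and 43.8 TPM in the rectum and between 40.2 and 54.8 TPM in the anus. As gene totals all 3 overlapped between the sections, with limma adjusted p-values of 0.0947 (Jup), 0.0926 (Dsp) and 0.144 (Dsc2). With TMM-type scaling factors Dsp passed the threshold (limma adjusted p 0.0146), and leaving out one mouse gave adjusted p-values between 0.0316 and 0.338 for Dsp and between 0.0356 and 0.259 for Jup. The coding Jup-201 was between 96.5 and 154 TPM in the rectum and between 181 and 192 TPM in the anus. The noncoding Jup-203 was at 50.9 ± 11.4 and 26.5 ± 5.07 TPM (SD, n = 4). The coding Dsc2-201 was at 2.10 ± 1.25 and 22.3 ± 5.07 TPM, and the coding Dsc2-202 at 31.2 ± 1.19 and 26.9 ± 7.25 TPM. Dsc2-203, annotated as a target of nonsense-mediated decay, was at 8.65 ± 3.07 and 0.0592 ± 0.118 TPM. These transcript differences were not tested.

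Of the 10 genes, Dsp and Jup had an entry in the promoter table, and their levels had a correlation of 0.901 over the 66 samples. The 250 bases before the start of each are shown, from RefSeq (GRCm38.p6), 5′ to 3′ on the strand of the gene. The Dsp sequence is chr13:38151044-38151293 (plus strand), and the Jup sequence is chr11:100397791-100398040 (minus strand). Capitals mark GC boxes (GGGCGG or its reverse complement) and CCAAT boxes (CCAAT, either strand), none of which overlap.
Dsp: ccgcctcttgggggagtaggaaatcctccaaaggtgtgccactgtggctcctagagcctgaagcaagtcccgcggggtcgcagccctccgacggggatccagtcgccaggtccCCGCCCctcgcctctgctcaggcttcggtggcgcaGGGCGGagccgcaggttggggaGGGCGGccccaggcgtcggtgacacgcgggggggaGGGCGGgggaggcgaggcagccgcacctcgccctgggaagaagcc
Jup: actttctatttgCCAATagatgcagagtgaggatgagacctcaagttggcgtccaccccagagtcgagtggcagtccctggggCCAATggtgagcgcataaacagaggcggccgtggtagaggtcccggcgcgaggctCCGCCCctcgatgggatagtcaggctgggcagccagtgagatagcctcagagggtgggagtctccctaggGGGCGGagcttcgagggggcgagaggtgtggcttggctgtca

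The Dsp window held 4 GC boxes, the first base of the nearest at -45 from the start, and no CCAAT box. The Jup window held 2 GC boxes, at -112 and -42, and 2 CCAAT boxes, at -238 and -167. Neither window held an AP-1 sequence (TGANTCA) or a grainyhead-like sequence (AACCGGTT). Of all 32851 promoter windows of this length, 32.7% held a GC box, 33.8% a CCAAT box, 6.75% the AP-1 sequence and 0.116% the grainyhead-like sequence. The GC content was 72.4% for Dsp and 62% for Jup, against a median of 52.4%. A match is a description of letters and not a site in use.

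Between rectum and mid-colon few genes of any kind were called. None of the 7 genes that reached 1 TPM in at least 4 of the samples was called by limma, against 1.79% of all 12037 genes tested. Pkp1 and Dsp had unadjusted p-values of 0.0238 and 0.0404. Pkp1 was at 3.60, 4.45, 5.24 and 1.59 TPM in mid-colon, just under its rectal range. Dsg3, Dsc3 and Dsg1a were too low to be tested here, at no more than 0.515 TPM in any of the 8 samples.

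The make-up of each family was compared by the shares of Dsg2, Dsc2 and Pkp1. Dsg2 made up 99.7% ± 0.133 (SD, n = 4) of the TPM of the 6 desmogleins in the day 0 rectum and 37.2% ± 14.2 (SD, n = 4) in the anus. Dsc2 made up 99.6% ± 0.596 (SD, n = 4) of the 3 desmocollins in the rectum and 48.3% ± 2.94 (SD, n = 4) in the anus. Pkp1 made up 6.88% ± 0.771 (SD, n = 4) of Pkp1, Pkp2 and Pkp3 in the rectum and 46.8% ± 3.59 (SD, n = 4) in the anus. Each of these 3 differences had the smallest p that an exact two-sided permutation test of 4 against 4 samples allows (0.0286, or 0.0429 adjusted over 12 share comparisons). With the mouse as a pair, the exact two-sided sign-flip permutation test over the 4 mice gave 0.125 for each, which is above the threshold and the smallest p that 4 pairs allow. The differences between rectum and mid-colon in these shares did not pass the same exact permutation test (adjusted p between 0.0623 and 0.143).

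**Figure D2:**
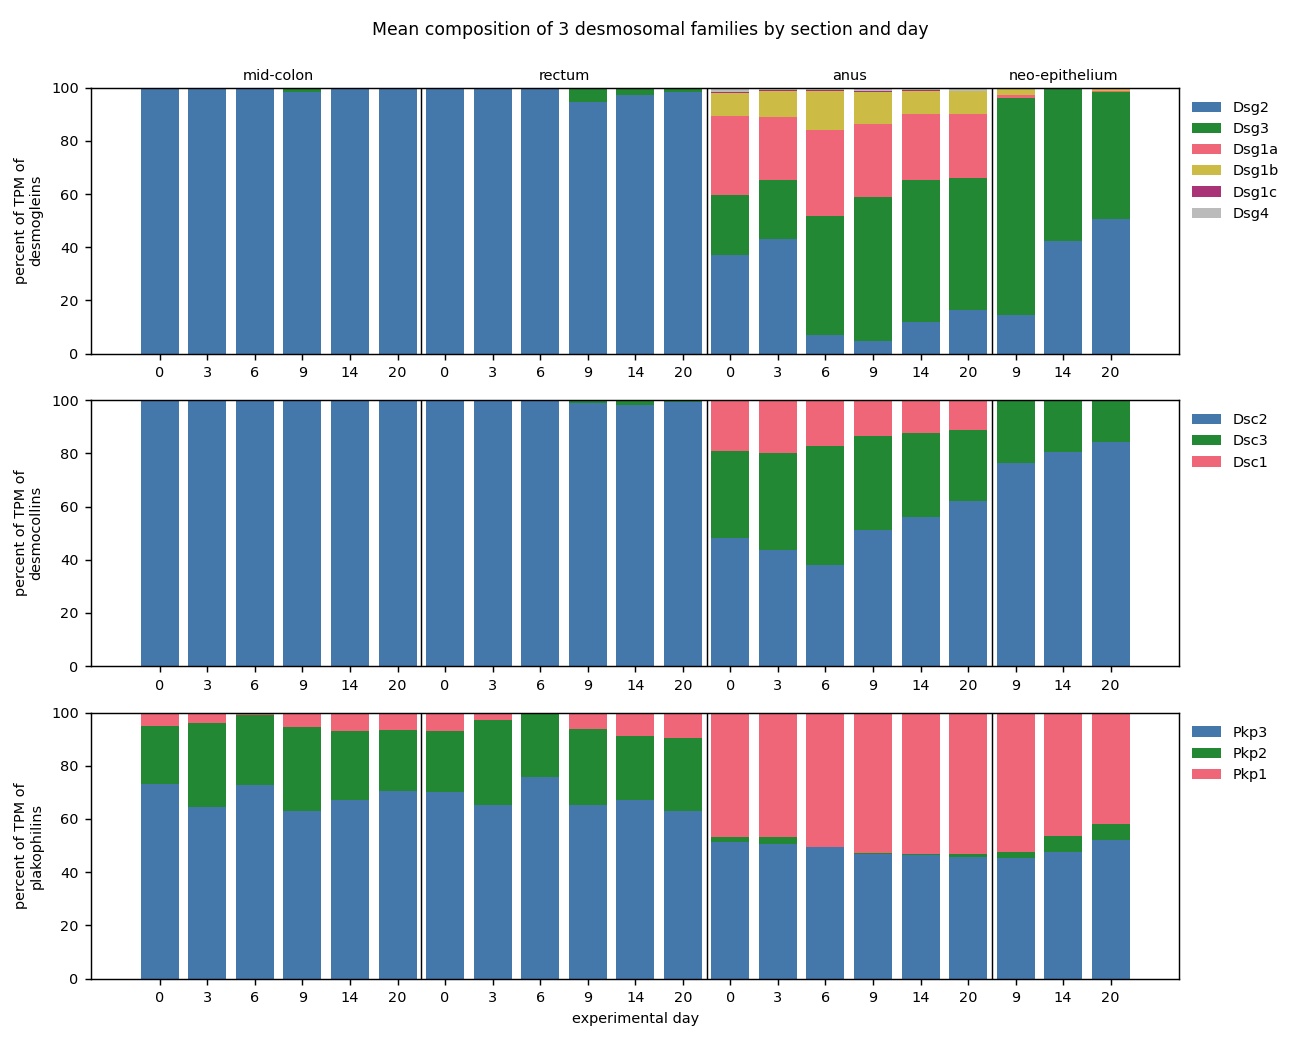
Mean percent of the summed TPM of each family that each gene makes up, by section and experimental day (4 mice at day 0, 3 on each later day), for the desmogleins, the desmocollins and the plakophilins. Dsg2 makes up 99.7% of the desmogleins in the day 0 rectum and 37.2% in the day 0 anus, and the neo-epithelium has almost none of the Dsg1 and Dsc1 of the anus.

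The squamous neo-epithelium differed from both neighbouring sections in its desmosomal genes, with Dsg2 below the rectum and above the anus. Against the rectum of the same 9 mice, 9 of the 10 genes were higher and Dsg2 was lower, with 42.0% of 14492 genes called overall. Against the anus of the same mice, Dsg2, Dsg3 and Dsc2 were higher, Dsg1a, Pkp1, Dsc3, Perp, Pkp3 and Dsp were lower, and Jup was not called (limma adjusted p 0.087), with 58.5% of 14861 genes called. The median difference of the 10 genes was 1.07 against the rectum (0.002 over all genes) and -0.52 against the anus (0.17 over all genes). With day 20 alone limma called 5 of the 10 against the rectum, and with day 14 or day 20 alone it called 5 against the anus.

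Dsg3 was at 98.9, 93.6 and 87.1 TPM in the neo-epithelium of the day 9 mice, 58.5, 94.8 and 106 TPM at day 14 and 74.7, 102 and 91.9 TPM at day 20. The anus of these 9 mice held between 45.6 and 93.5 TPM (median 58.5), and the rectum between 0.352 and 11.7 TPM (median 5.23). Dsg3 was thus above its own rectum in all 9 mice (4.34 ± 0.34, SE) and above its own anus in 7 of 9 (0.58 ± 0.13, SE, limma adjusted p 0.00139).

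Dsc3 ranged from 21.2 to 41.5 TPM (median 32.2) in the neo-epithelium and from 42.2 to 70.8 TPM (median 45.7) in the anus. The neo-epithelium was lower in 9 of 9 mice (-0.72 ± 0.11, SE, limma adjusted p 4.45e-05). Dsc2 ranged from 96.9 to 154 TPM (median 124) in the neo-epithelium and from 75.7 to 112 TPM (median 80.9) in the anus, and the neo-epithelium was higher in 8 of 9 mice (0.46 ± 0.10, SE). Of the 3 desmocollins together, Dsc2 made up 80.3% ± 3.94 (SD, n = 9) in the neo-epithelium. It made up 56.4% ± 7.26 in the anus and 98.7% ± 1.32 in the rectum. Dsc1 made up 12.4% ± 5.48 in the anus and 0.139% ± 0.163 in the neo-epithelium, and Dsc3 31.1% ± 4.18 and 19.5% ± 3.94. The Dsc2 transcript annotated as a target of nonsense-mediated decay (Dsc2-203) was at 37.0 ± 14.3 TPM in the neo-epithelium and 6.53 ± 8.55 TPM in the anus. The coding Dsc2-202 was at 58.7 ± 7.96 and 41.0 ± 8.80 TPM, and the coding Dsc2-201 at 27.4 ± 15.4 and 40.8 ± 10.1 TPM.

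Dsg1a set the neo-epithelium apart from the anus. It was at 0.572, 1.24 and 1.83 TPM in the neo-epithelium at day 9, at 0.114, 0.226 and 0.0752 TPM at day 14 and at 1.50, 0.297 and 0.313 TPM at day 20. The anus of the same mice held between 18.9 and 48.2 TPM (median 27.8), and 9 of 9 mice were lower in the neo-epithelium (-4.21 ± 0.17, SE, limma adjusted p 2.84e-12). In the rectum Dsg1a was listed at 0 in most of the 9 mice and was at most 0.0148 TPM.

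Genes beyond the 10 from the lists of further desmosomal genes and keratins were also lower in the neo-epithelium than in the anus. Dsc1, the desmocollin of the upper epidermis, was between 7.48 and 42.6 TPM in the anus of days 9 to 20 and at most 0.738 TPM in the neo-epithelium (-4.02, limma adjusted p 2.52e-10). Cdsn, corneodesmosin of the cornified layer, was between 47.6 and 147 TPM in the anus and between 0.418 and 16.7 TPM in the neo-epithelium (-4.55, limma adjusted p 2.68e-09). Krt10, a keratin of the upper epidermal layers, was lower in the neo-epithelium (-5.39, limma adjusted p 8.02e-09), whereas Krt5 (0.65) and Krt14 (0.67), the basal layer keratins, were higher. Of the 6 squamous markers these 2 were higher, Krt4 (-1.48) and Sprr1a (-2.15) were lower, and Krt13 and Trp63 were not called (median -0.20). Of the 10 keratins 6 were higher and 3 lower. Hair follicle markers (Krt25, Krt27, Krt71, Krt35, Tchh) summed to between 1.74 and 932 TPM in the anus over all days and to at most 2.42 TPM in the neo-epithelium, where Krt25 was listed at 0 in all 9 samples. Their part in the differences between anus and neo-epithelium was not tested.

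**Figure D3:**
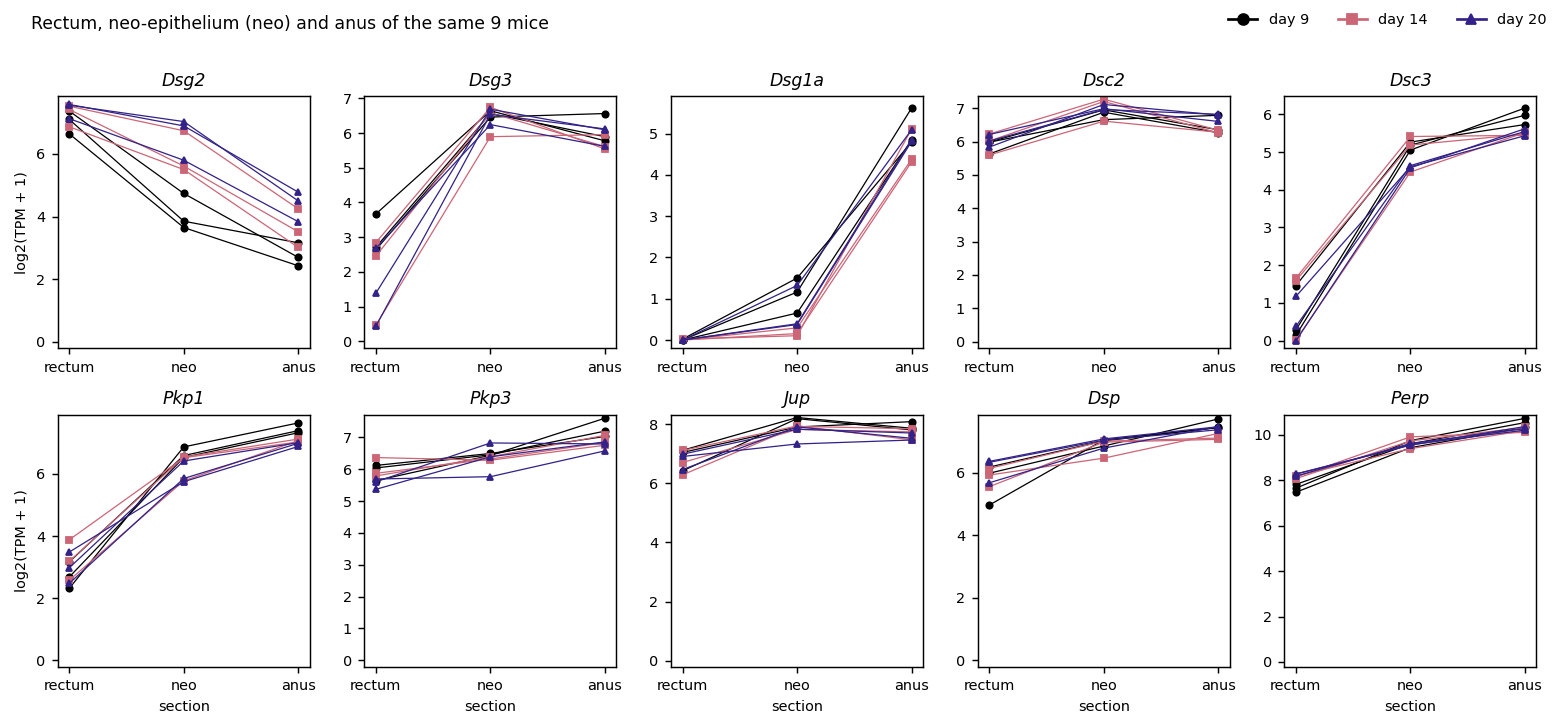
Level, as log2(TPM + 1), of the 10 genes in rectum, neo-epithelium and anus of the same 9 mice at days 9, 14 and 20; each line is one mouse. The neo-epithelium lies near the anus for Dsg3, between rectum and anus for Dsg2, and near the rectum for Dsg1a.

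Pkp1 ranged from 52.8 to 116 TPM (median 90.9) in the neo-epithelium, from 3.97 to 13.7 TPM in the rectum and from 117 to 199 TPM in the anus of the 9 mice. The 3 ranges did not overlap, and the difference was 3.35 ± 0.21 (SE) from the rectum and -0.85 ± 0.11 (SE) from the anus. Perp had the same order without overlap: 176 to 308 TPM in the rectum, 667 to 956 TPM in the neo-epithelium and 1098 to 1682 TPM in the anus. Pkp3 overlapped between neighbouring sections, with means of 57.1 ± 12.6, 83.1 ± 15.2 and 127 ± 29.3 TPM (SD, n = 9) in rectum, neo-epithelium and anus. Dsp had means of 61.1 ± 16.7, 121 ± 15.0 and 166 ± 23.4 TPM (SD, n = 9) in that order. The largest coding transcript of Pkp3 (Pkp3-202) ran against the gene level between neo-epithelium and anus. It was at 63.3 ± 9.59 TPM in the neo-epithelium and 42.4 ± 10.1 TPM in the anus (SD, n = 9).

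As a gene total Jup, which serves desmosomes and adherens junctions, had its highest mean in the neo-epithelium, as did Dsg3 and Dsc2. It was at 298, 290 and 238 TPM there at day 9, at 225, 245 and 242 TPM at day 14 and at 160, 239 and 227 TPM at day 20. The neo-epithelium was above the rectum in all 9 mice (1.12 ± 0.13, SE, limma adjusted p 5e-06). Against the anus it was higher in 7 of 9 mice by a difference (0.18 ± 0.09, SE) that did not pass the threshold, and without single mice the limma adjusted p lay between 0.0249 (without mouse 17) and 0.211. With TMM-type factors the difference was 0.02 (limma adjusted p 0.839). The coding Jup-201 was not highest in the neo-epithelium, at 167 ± 34.3 TPM there and 175 ± 27.5 TPM in the anus (SD, n = 9). The noncoding Jup-203 was at 65.6 ± 9.75 TPM in the neo-epithelium and 29.97 ± 7.94 TPM in the anus. These transcript differences were not tested.

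Dsg2 rose within the neo-epithelium between day 9 and day 20. It was at 25.6, 11.5 and 13.4 TPM at day 9, at 105, 47.8 and 44.1 TPM at day 14 and at 118, 54.5 and 129 TPM at day 20. Day 20 was above day 9 without overlap (2.49 ± 0.41, SE, limma adjusted p 0.00882), in a comparison with 26.2% of 13186 genes called. All 5 colonic markers that could be tested rose in the same comparison, with a median difference of 6.72. The day 14 mouse with the most Dsg2 (105 TPM) also had the most colonic marker TPM of that day (2442 against 398 and 465). The part of the colonic markers in the rise of Dsg2 was not tested. In the day 9 neo-epithelium Cdx2, the colonic transcription factor, was at most 0.322 TPM.

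Dsc3 was the other gene called between these days, and it fell. It was at 37.4, 32.2 and 35.3 TPM at day 9 and at 23.4, 23.9 and 23.0 TPM at day 20 (-0.56 ± 0.13, SE, limma adjusted p 0.0235). Of the squamous markers 2 of 6 fell as well (median -0.52). The Dsc3 call ended when any of the 3 day 9 mice or mouse 17 of day 20 was left out (limma adjusted p between 0.0585 and 0.104), and with all groups in one fit (0.0988). The other 8 genes did not pass the threshold. Pkp1 was at 95.4, 116 and 91.5 TPM at day 9 and at 52.8, 84.5 and 56.8 TPM at day 20 (limma adjusted p 0.0604), and Dsp was at 125 TPM on average on both days.

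Dsg2 made up 35.8% ± 20.4 (SD, n = 9) of the desmogleins in the neo-epithelium, 96.8% ± 2.31 in the rectum and 11.1% ± 6.24 in the anus of the same mice. The Dsg2 share in the neo-epithelium was under that in the rectum and over that in the anus in all 9 mice. For the Dsg2 and Dsc2 shares the exact two-sided sign-flip permutation test over the 9 mice gave its smallest possible p of 0.00391 against either section (adjusted 0.00938). Pkp1 made up 46.9% ± 8.33 (SD, n = 9) of the plakophilins in the neo-epithelium and 53.1% ± 2.05 in the anus, a difference that did not pass the exact permutation test after adjustment (0.0573). Without mouse 12 of day 9 it was -7.65 percentage points and passed. Pkp2, the plakophilin of simple epithelia and heart, made up 26.6% of the family in the rectum, 4.79% in the neo-epithelium and 0.656% in the anus.

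The transcripts that made up each gene were compared between the sections as a description, since short reads are assigned to overlapping transcripts by an estimate. Dsp has a long coding transcript of 9592 bases (Dsp-201) and a shorter one of 7761 bases (Dsp-202). The shorter one made up 67.7% ± 3.76 (SD, n = 4) of Dsp TPM in the day 0 anus, 36.5% ± 3.16 in the rectum and 37.6% ± 6.16 in mid-colon. In the neo-epithelium it made up 43.7% ± 5.56 (SD, n = 9), from 31.8 to 50.5%, below the anus of the same days (54.1 to 70.2%). The rectum of the same days was at 43.5% ± 9.21 (SD, n = 9). For Pkp3, a transcript annotated as a retained intron (Pkp3-205, 1425 bases) made up 55.9% ± 7.03 (SD, n = 4) of the TPM in the day 0 anus, against 8.73% ± 4.10 in the day 0 rectum. At days 9, 14 and 20 it made up 14.9% ± 7.46 in the neo-epithelium, 19.3% ± 5.80 in the rectum and 50.9% ± 7.98 in the anus (SD, n = 9).

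Jup-203, a noncoding transcript of 742 bases, and Dsc2-203, annotated as a target of nonsense-mediated decay, ran the other way. Jup-203 made up between 23.0 and 32.1% of Jup TPM in the neo-epithelium and between 8.55 and 18.6% in the anus of the same days. Dsc2-203 made up 29.5% ± 9.87 (SD, n = 9) of Dsc2 TPM in the neo-epithelium and 7.10% ± 9.28 in the anus. For these 4 transcripts the mean share in the neo-epithelium was nearer to that of the rectum than to that of the anus. This did not hold for the coding transcript Dsc2-202, at 47.3% in the neo-epithelium, 45.0% in the anus and 68.7% in the rectum of the same days. The total level of all 4 genes in the neo-epithelium was 1.46-fold (Pkp3) to 2.16-fold (Jup) that of the rectum. Because the gene TPM is a sum over transcripts of different length, these shares also enter the gene levels given above.

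In rectum and mid-colon the desmosomal genes had the most calls at days 6 and 9. These were also the days with the most calls over all genes in both sections. At day 3 none of the 7 tested genes was called by limma in mid-colon (0.375% of all genes called), where Perp had an unadjusted p of 0.00894. In rectum only Pkp1 was called at day 3, and it was lower (6.62% called). Perp, Dsp and Jup were also lower there, with unadjusted limma p-values of 0.00432, 0.00922 and 0.0191, but were not called. Over all 12348 genes tested in that comparison, 2515 had an unadjusted p under 0.05. At day 6 Pkp1 and Perp were lower in mid-colon (14.9% called), and Pkp1, Dsp, Jup, Perp and Dsg2 were lower in rectum (48.7% called). At day 9 the same 6 genes were called in both: Dsg3 and Dsc2 were higher and Dsg2, Dsp, Jup and Perp were lower, with 43.4% of genes called in mid-colon and 53.5% in rectum. The mid-colon and rectum samples come from the same mice.

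**Figure D4:**
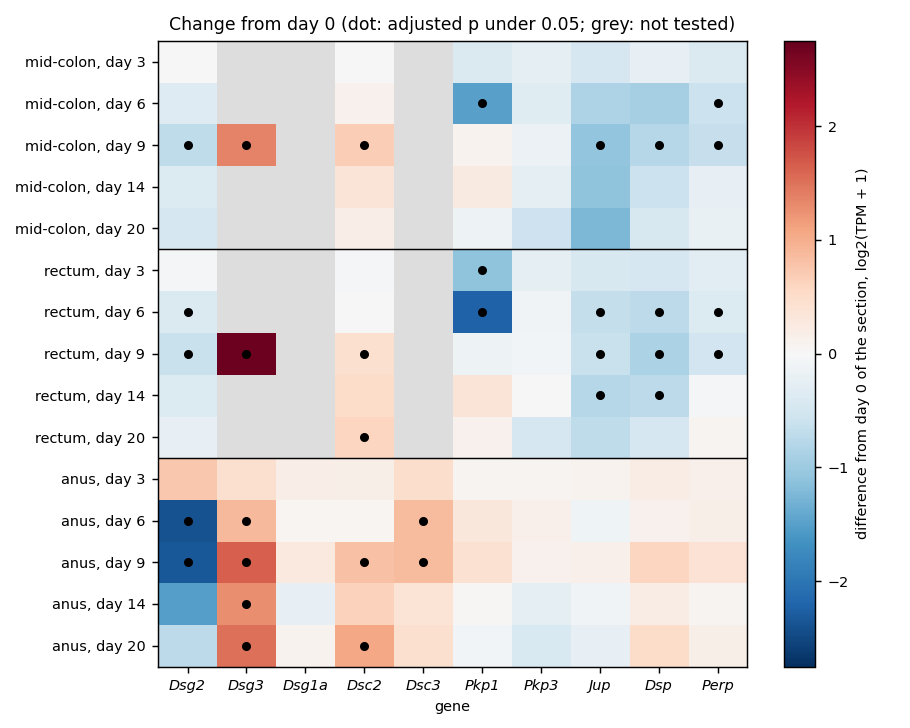
Difference of each later day from day 0 of the same section, on the log2(TPM + 1) scale, for the 10 genes (columns) in mid-colon, rectum and anus (rows); a dot marks a limma adjusted p under 0.05 and grey a gene too low to be tested. Dsg3 is higher at day 9 in all 3 sections, and Dsg2 falls most in the anus at days 6 and 9.

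Pkp1 had the deepest fall and regained its level. In the rectum it was at 8.19, 6.29, 5.48 and 5.25 TPM at day 0, at 2.42, 2.20 and 2.52 TPM at day 3 and at 0.766, 0.446 and 0.478 TPM at day 6. The differences from day 0 were -1.10 ± 0.15 (SE) at day 3 and -2.21 ± 0.17 (SE) at day 6 (limma adjusted p 0.00362 and 9.66e-05), without overlap. At day 9 it was at 7.98, 3.97 and 5.41 TPM, back within reach of the day 0 values, and it was not called on any later day. In mid-colon it was between 0.464 and 0.744 TPM at day 6 against 1.59 to 5.24 TPM at day 0 (-1.49 ± 0.28, SE, limma adjusted p 0.0104). Perp in the rectum was at 287 ± 12.1 TPM (SD, n = 4) at day 0. It fell to 222 ± 20.8 TPM at day 6 and 199.5 ± 23.8 TPM at day 9, and stood at 301 ± 11.1 TPM at day 20 (SD, n = 3 each).

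Dsp and Jup, the shared linkers, fell together in the rectum. Dsp went from 108, 91.7, 96.7 and 85.1 TPM at day 0 to 67.2, 67.4 and 41.7 TPM at day 6, 71.5, 30.2 and 62.3 TPM at day 9 and 59.8, 69.4 and 46.0 TPM at day 14. Its difference was -0.88 ± 0.26 (SE, limma adjusted p 0.0209) at day 9 and -0.71 ± 0.15 (SE, 0.0233) at day 14. Jup had a mean of 180 ± 35.4 TPM (SD, n = 4) at day 0, and of 118 ± 28.8 and 106 ± 30.1 TPM (SD, n = 3) at days 9 and 14. All day 6, 9 and 14 values of both genes in the rectum were below all day 0 values. In mid-colon Jup fell by 1.08 on the log2 scale at day 9 (limma adjusted p 0.00804) and Dsp by 0.78 (0.0445). The mid-colon Dsp call ended without mouse 1, 2, 3, 11 or 13 (limma adjusted p between 0.0906 and 0.141) and with no filter (0.111). In rectum at day 9 the Jup call ended without mouse 1, 2, 3 or 12 (between 0.0603 and 0.0935), and the Dsp call without mouse 1 (0.0531).

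The size of these falls depends on the scaling of the libraries. The median difference over all genes was -0.27 in rectum at day 6, 0.13 in rectum at day 9, -0.24 in mid-colon at day 6, 0.09 in mid-colon at day 9 and 0.14 in mid-colon at day 3, and TMM-type factors moved it to -0.06, -0.15, -0.03, -0.13 and -0.01. With these factors 2 of the 5 rectal calls of day 6 were left (Pkp1 and Dsp), and the higher Dsc2 of the rectum at day 9 was not called (limma adjusted p 0.309). Over all 12615 genes tested in rectum at day 6, 2213 were called higher and 2301 lower with TMM-type factors. In mid-colon at day 6 these factors ended the Perp call (limma adjusted p 0.0683) and brought in Dsp (0.0467). At day 9 Dsg2, Dsp, Jup and Perp were called lower with either scaling in both sections, but with all groups in one fit Dsg2 was called in neither (limma adjusted p 0.085 in mid-colon and 0.125 in rectum). The all-gene median between day 0 rectum and mid-colon moved from 0.21 to -0.02, and that between neo-epithelium and anus from 0.17 to 0.05. For the difference in response between anus and rectum it moved from -0.12 to 0.13.

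At day 9 Dsg2 was called lower and Dsc2 higher in both sections, with the exceptions given above for Dsg2 in one fit and for rectal Dsc2 with TMM-type factors. Dsg2 was at 106, 123 and 101 TPM in the mid-colon, against 121 to 220 TPM at day 0 (-0.69 ± 0.21, SE, limma adjusted p 0.0199), and at 164, 98.6 and 136 TPM in the rectum, against 182 to 213 TPM at day 0 (-0.61 ± 0.16, SE, limma adjusted p 0.0121). Dsc2 was at 48.9, 70.1 and 64.6 TPM in mid-colon, above all 4 day 0 values (26.2 to 44.6 TPM, limma adjusted p 0.026), and at 62.4, 48.5 and 62.3 TPM in rectum, above 40.8 to 43.8 TPM. In mid-colon the Dsg2 call ended without mouse 2, 3, 11 or 13 (limma adjusted p between 0.0503 and 0.0707), and the Dsc2 call without mouse 12 or 13 (0.0971 and 0.0857). In the rectum Dsc2 remained above its day 0 range, at 73.2, 63.8 and 56.1 TPM at day 20 (0.59 ± 0.12, SE, limma adjusted p 0.0306). Colonic epithelial markers were lower as a sum at day 9 in both sections, at 2635 to 3438 TPM against 6662 to 9368 TPM at day 0, with 3 of 6 called lower in each and 2 called higher in rectum. Neutrophil markers rose from at most 5.89 to at least 11063 TPM in rectum. Their part in these changes was not tested.

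Dsg3 appeared in the rectum from day 9. It was between 0.0121 and 0.515 TPM in the 10 rectal samples of days 0, 3 and 6. At day 9 it was at 11.7, 5.54 and 5.23 TPM (2.70 ± 0.27, SE, limma adjusted p 6.29e-05). Later values split: 0.379, 4.49 and 6.18 TPM at day 14 and 5.39, 1.61 and 0.352 TPM at day 20, and on both days it did not reach 1 TPM in enough samples to be tested. The mouse with the lowest Dsg3 of day 14 and that of day 20 also had the lowest squamous marker sums (35.6 and 12.0 TPM), and the mouse with 11.7 TPM had the highest sum of day 9 (650 TPM). The part of these squamous markers in the Dsg3 values was not tested.

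In mid-colon Dsg3 also rose at day 9, from at most 0.0944 TPM at day 0 to 1.83, 1.85 and 1.33 TPM (1.36 ± 0.16, SE, limma adjusted p 0.000124), and it was called without each of the 7 mice in turn. There Trp63, the transcription factor that defines squamous basal cells, was at most 0.0515 TPM and Krt5 at most 0.638 TPM, while Sprr1a was between 24.5 and 59.1 TPM. Dsc3 did not follow: it was at most 0.0271 TPM in the day 9 mid-colon. In the day 9 rectum Dsc3 was at 1.75, 0.106 and 0.220 TPM, so 2 of 3 mice had over 5 TPM of Dsg3 with under 0.3 TPM of Dsc3. In the neo-epithelium the 2 genes stood at 89.7 ± 14.8 and 30.4 ± 7.55 TPM (SD, n = 9).

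On the log2(TPM + 1) scale the response of Dsg3 at day 9 was larger in rectum than in mid-colon by 1.34 ± 0.31 (SE, limma adjusted p 0.0186), the single gene called of 8 tested (6.55% of all genes called). As a ratio of mean TPM the order was the other way, at 29.9-fold in rectum and 41.3-fold in mid-colon, from day 0 means of 0.251 and 0.0405 TPM. The difference did not pass the threshold with a pseudocount of 0.1 TPM (0.586), with all groups in one fit (0.114) or without mouse 2, 3 or 4 (between 0.06 and 0.0718). On later days few genes were called. In mid-colon none passed in limma at day 14 (4.36% called) or day 20 (1.56% called), with Jup at unadjusted p-values of 0.00881 and 0.00371 and called at both with TMM-type factors and with all groups in one fit. In rectum Dsp and Jup were lower at day 14 (15.8% called) and Dsc2 was higher at day 20 (7.68% called).

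Many of these counts rest on single mice. In mid-colon, 6 genes were called at day 6 without mouse 4 and 1 without mouse 1, 2 or 10, and 3 at day 9 without mouse 13. Without mouse 4, 1 gene was called in mid-colon at day 14 and 2 at day 20, and without mouse 19, 1 at day 20. In rectum, 2 were called at day 3 without mouse 4 or 7. The day 14 count in rectum was 0 without mouse 1, 2, 3 or 16, 1 without mouse 4 and 4 without mouse 14, and the day 20 count was 0 without mouse 1, 2, 3, 4 or 18 and 2 without mouse 19. In the day 0 mid-colon mouse 4 had the lowest value of Dsg2, Dsc2, Pkp1, Pkp3, Perp, Dsp and Jup. For these and the other counts without one mouse, the share of all genes called is not given here. They therefore cannot be told apart from a shift over all genes.

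In the anus Dsg2 was the one gene called lower, and the squamous cadherins Dsg3 and Dsc3 were called higher along with Dsc2. None of the 10 genes was called by limma at day 3 (0.044% of all genes called), and none had an unadjusted p under 0.05. At day 6 Dsg2 was lower and Dsg3 and Dsc3 were higher (15.0% called). At day 9 Dsg2 was lower and Dsg3, Dsc2 and Dsc3 were higher (5.09% called). Dsg3 was the one gene called at day 14 (4.27% called), and Dsg3 and Dsc2 were higher at day 20 (1.46% called).

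Dsg2 in the anus was at 20.3, 26.9, 25.5 and 85.9 TPM at day 0 and at 70.4, 36.3 and 68.0 TPM at day 3. It was at 6.80, 4.29 and 5.77 TPM at day 6 and at 5.48, 4.39 and 7.95 TPM at day 9, below every day 0 and day 3 value. The difference from day 0 was -2.39 ± 0.45 (SE, limma adjusted p 0.00962) at day 6 and -2.33 ± 0.45 (SE, 0.0217) at day 9, and it was -1.94 and -1.89 without the day 0 mouse at 85.9 TPM. The day 9 call ended without mouse 2, 11, 12 or 13 (limma adjusted p between 0.0523 and 0.0976). Dsg2 then stood at 17.9, 10.4 and 7.08 TPM at day 14 and at 26.4, 13.3 and 21.6 TPM at day 20, neither called. At days 6 and 9 all 5 testable colonic markers were called lower in the anus, with medians of -5.52 and -6.20, and Cdx2 was at most 0.0224 TPM. The part of the colonic markers was not tested.

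Dsg3 in the anus was at 18.2, 16.3, 25.0 and 23.9 TPM at day 0, and every value from day 6 on was above these 4. It was at 35.0, 52.8 and 31.7 TPM at day 6, at 53.8, 58.5 and 93.5 TPM at day 9, at 61.0, 47.8 and 45.6 TPM at day 14 and at 48.1, 67.2 and 68.5 TPM at day 20. The differences were 0.89, 1.65, 1.27 and 1.51, with limma adjusted p-values of 0.0355, 0.00553, 0.0144 and 0.0225. Leaving out one mouse kept the call in all 7 cases at days 9 and 14, in 4 of 7 at day 20 and in 2 of 7 at day 6. The squamous marker sum of the anus was 11225 to 19843 TPM at day 0 and 24219 to 25710 TPM at day 20, with none of its 6 genes called at day 20.

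Dsc2 in the anus reached 96.3, 112 and 110 TPM at day 20, from 40.2 to 54.8 TPM at day 0 (1.07 ± 0.16, SE, limma adjusted p 0.0245). Dsc3 was at 55.1, 84.1 and 50.4 TPM at day 6 and at 52.0, 70.8 and 61.9 TPM at day 9, above 26.3 to 43.5 TPM at day 0 (0.87 and 0.86). Its limma adjusted p was 0.0383 and 0.0481, and 6 of the 7 ways to leave out a mouse ended either call. The counts in the anus fell to 1 at day 6 without mouse 1, 2, 8, 9 or 10, to 1 at day 9 without mouse 2, 11, 12 or 13 and 2 without mouse 4, and to 0 at day 20 without mouse 2, 18 or 19 and 1 without mouse 3. Dsg1a, Pkp1, Pkp3, Perp, Dsp and Jup were not called in the anus on any day. Dsg1a was between 18.9 and 55.3 TPM there over all 19 mice.

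The day 9 response differed between anus and rectum for 4 of the 10 genes (19.9% of all genes called). Dsp (1.47 ± 0.35, SE, limma adjusted p 0.0096), Perp (0.93 ± 0.19, SE, 0.00383) and Jup (0.75 ± 0.25, SE, 0.0498) had a more positive change in the anus than in the rectum, and Dsg2 a more negative one (-1.72 ± 0.52, SE, 0.0327). Dsp in the anus was at 174, 173 and 210 TPM at day 9 against 95.6 to 152 TPM at day 0, a difference that was not called by itself (limma adjusted p 0.149), but was with TMM-type factors (0.0373). Dsg2 was -1.23 (limma adjusted p 0.0154) without the day 0 mouse at 85.9 TPM. With the mouse as a replicate block 3 were called, since Jup had an adjusted p of 0.0522. Dsg3 was not called (-1.05, limma adjusted p 0.0699), but it was with a pseudocount of 0.1 TPM (0.00428). Jup was then not called (0.0503), nor was it with all groups in one fit (0.0938). TMM-type factors added a call of Dsc2 (limma adjusted p 0.0295). Of the 7 ways to leave out a mouse, the Jup call held for mouse 4 and ended for the other 6, the Dsg2 call ended without mouse 2, 11, 12 or 13 (limma adjusted p between 0.0653 and 0.135), and 2 calls were left without mouse 2, 11 or 12.

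Other genes of the pathway gave the setting. Of 10 further desmosomal genes (Dsg1b, Dsg1c, Dsg4, Dsc1, Pkp2, Pkp4, Cdsn, Evpl, Ppl, Kazn), 8 could be tested between the day 0 anus and rectum, where 6 were higher and Pkp2 was lower (median 2.44, against 60.3% of all genes called). The plakin crosslinkers Ppl (periplakin, 4.86) and Evpl (envoplakin, 1.83) and Cdsn (6.26) were among the 6. Between neo-epithelium and rectum 4 of 7 were higher (Evpl, Ppl, Cdsn and Dsg1b) and Pkp2 was lower, against 42.0% of all genes called. Between neo-epithelium and anus 7 of 9 were lower and Pkp2 was higher, against 58.5% of all genes called. In the rectum at day 9 Evpl fell by 2.14 on the log2 scale and Pkp4, an armadillo protein of cell junctions, rose by 1.10.

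Of 8 adherens junction genes, the classical cadherin Cdh1 was lower in the day 0 anus than in the rectum (-1.79) along with Ctnna1, Ctnnd1 and Ctnnb1. Cdh3, Nectin1 and Nectin4 were higher, and Afdn was not called. In the neo-epithelium Cdh1 lay between the 2 sections, lower than the rectum (-1.10) and higher than the anus (0.70). Among 10 keratins, to which desmosomes attach, Krt8, Krt18, Krt19 and Krt20 of simple epithelia were lower and Krt5, Krt14, Krt15, Krt4, Krt13 and Krt10 were higher in both the anus (day 0) and the neo-epithelium than in the rectum.

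Across the 66 samples the 10 genes fell into Dsg2 on one side and the rest on the other. These are Pearson correlations of log2(TPM + 1) that the differences between sections dominate, and they are given as a description. Dsg2 was negatively correlated with the other 9 (from -0.459 with Dsc2 to -0.852 with Dsc3). Dsc3, Pkp1 and Perp were correlated with each other at 0.968 to 0.973. The lowest of the positive correlations was that of Dsc2 with Dsg1a (0.269), while Dsc2 and Dsg3 had 0.821.

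Outside the 10, the genes most correlated with each of them (mean of at least 8 TPM over all samples) were as follows. Dsg2 was nearest to Epcam, the adhesion molecule of simple epithelia (r 0.989), and Parm1 (0.988). Dsc3 was nearest to Trp63 (0.994) and Lypd3 (0.993), and Dsg3 to Tgm1, a transglutaminase of squamous cells (0.981), and Rgs12 (0.979). Dsg1a was nearest to Atp6v1c2 (0.994) and to Lce1a1 (0.993), a gene of the late cornified envelope. Perp was nearest to Grhl1, an epithelial transcription factor (0.980), and Tprg (0.979), and Pkp1 to Emp2 (0.984) and Gjb2, a gap junction connexin (0.982). Dsp was nearest to Pgrmc1 (0.919) and Evpl (0.917), Jup to Gipc1 (0.916) and Ppp1r13l (0.902), Pkp3 to Mfsd5 (0.950) and Gltp (0.928), and Dsc2 to Tspan14 (0.901) and Cast (0.897).

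In the genome (mm10, GRCm38) the 5 cadherins lie in one cluster on chromosome 18, from the start of Dsc3 at 19960930 to the end of Dsg2 at 20604521. Dsc3 and Dsc2 (20030633 to 20059554) are on the minus strand, and Dsg1a (20310811 to 20343350), Dsg3 (20510274 to 20547459) and Dsg2 (from 20558074) on the plus strand. Of the named genes Dsg3 and Dsg2 lie next to each other and had a correlation of -0.778 over the 66 samples, while it was 0.662 for Dsc3 and Dsc2 and 0.670 for Dsg1a and Dsg3. Pkp1 is on chromosome 1 (135871395 to 135919207), Pkp3 on chromosome 7 (141078218 to 141090510), Perp on chromosome 10 (18845020 to 18857073), Dsp on chromosome 13 (38151294 to 38198577) and Jup on chromosome 11 (100368958 to 100397763).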

How the data were processed

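Values are TPM per transcript as the authors deposited them, with 1 column per sample, a unit that holds length-adjusted relative abundance and no read counts, so depth is unknown and no counting interval is given; its number of genes with at least 1 TPM per sample ran from 11268 to 13789. kallisto, CASAVA and mm10 are named in the submitters' processing notes, without versions. Libraries were stranded mRNA libraries read as single-end 75 bp reads, per the labels' protocols. Rows that repeated a transcript (1318) were dropped, after which each column summed to 1000000 TPM, and transcripts were summed per gene.

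Tests used limma 3.58.1 (R 4.3.3, trend prior) on log2(TPM + 1), with only the groups compared. A gene was tested if 4 samples (day 0 sections) or 3 samples (all other comparisons) had 1 TPM or more. p-values were adjusted (Benjamini-Hochberg) over all genes tested, and the code was tested on simulated data. Neo-epithelium was compared with rectum and anus with day as a covariate. Family shares used exact permutation tests, adjusted over 12. Other calculations used Python 3.11.15, numpy 2.4.6, pandas 2.3.3 and matplotlib 3.10.9.

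Sections of one mouse are paired by the mouse identifiers in the labels. Their deviations from the group means correlated, as a mean over mice, between 0.054 and 0.258. The labels do not say whether mice were treated in separate cages or batches. Each day has different mice, so a cage or batch shared by the mice of one day cannot be told apart from the day. The p-values measure the spread between these mice. Alternatives were a pseudocount of 0.1 TPM, no filter, TMM-type factors, all 21 groups in one fit, each mouse left out and the mouse as a replicate block; comparisons of neo-epithelium on single days were added after seeing the data. The 10 genes, the lists and the marker genes were chosen with earlier results of these data known. Text names the 10 genes, those of the fixed lists and, for each of the 10, the 2 most correlated genes with a mean of at least 8 TPM. All 36 transcripts were found in GENCODE vM21, and 2 of the 10 genes had a sequence in the promoter table.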

Additional observations from a re-analysis of the deposited data

Results flagged for a closer look

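In 39 groups of 4 day 0 values that were examined for a value far from the rest, 3 had one, and chance alone gives about 1 in 20. Dsg2 in the anus of one day 0 mouse stood at 85.9 TPM, against 20.3 to 26.9 TPM in the other 3. Dsg1a in mid-colon was listed at 0.007001 TPM in one day 0 mouse and at 0 in the other 3. The Dsc2 share of desmocollins in rectum was 98.7% in one day 0 mouse, against 99.8 to 99.9% in the other 3.

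The change from day 0 to day 9 differed between sections for 5 genes by a test of the difference itself in limma. For Dsg3 the change in rectum was above that in mid-colon by 1.34 on the log2(TPM + 1) scale, but the limma adjusted p was 0.586 with a pseudocount of 0.1 TPM and 0.114 with all groups in one fit, and the ratio of mean TPM was larger in mid-colon (41.3-fold) than in rectum (29.9-fold). Between anus and rectum the response differed by 1.47 for Dsp, 0.93 for Perp, 0.75 for Jup and -1.72 for Dsg2. In the anus of days 6 and 9 the colonic marker sum was 13.9 to 51.1 TPM, against 449 to 1649 TPM at day 0, and its part in the Dsg2 difference was not tested.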

How the results depend on the processing

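Counts below are genes called of the 10, and the share of all genes called under each setting is not given beside them. All groups in one fit gave 4 in mid-colon at day 6, 1 at day 14 and 1 at day 20, 2 in rectum at day 20, 3 in anus at day 14, 1 for neo-epithelium day 20 against day 9 and 0 for the response of rectum minus mid-colon, which was also 0 with a pseudocount of 0.1 TPM. TMM-type factors gave 1 in mid-colon at day 14 and at day 20, 2 in rectum at day 6 and at day 20 and 1 in anus at day 20. No filter gave 3 in mid-colon at day 9, 1 in rectum at day 14, 0 in rectum at day 20, 1 in anus at day 6 and at day 9 and 2 for the response of anus minus rectum. Neo-epithelium on single days, added after seeing the data, gave 5 against rectum at day 20, and 5 against anus at day 14 and at day 20. Causes were not tested. Single days have fewer samples, and no filter adds tested genes.

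Leaving out one mouse at a time gave 1 to 6 in mid-colon at day 6, 3 to 6 at day 9, 0 to 1 at day 14 and 0 to 2 at day 20. It gave 1 to 2 in rectum at day 3, 0 to 4 at day 14 and 0 to 2 at day 20, and 1 to 3 in anus at day 6, 1 to 3 at day 9 and 0 to 2 at day 20. It gave 1 to 3 for neo-epithelium day 20 against day 9, 0 to 1 for the response of rectum minus mid-colon and 2 to 4 for that of anus minus rectum. The Pkp1 share of neo-epithelium minus anus ran from -7.65 to -4.24 percentage points. With the mouse as a replicate block the counts were 7 for day 0 anus against rectum, 0 for rectum against mid-colon, 10 and 9 for neo-epithelium against rectum and anus, and 1 and 3 for the responses; among these limma calls it ended that of Jup alone. For the 3 shares of day 0 anus against rectum the paired exact permutation p was 0.125, the smallest that 4 pairs allow. No result changed direction among those called.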
